A study of Mus musculus with 19 samples.

Results

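The genes of hepatic glucose handling described here are 9 genes chosen by name: *Pck1*, *G6pc*, *Fbp1* and *Pcx* of gluconeogenesis, *Pklr* of glycolysis, the glucose transporter *Slc2a2*, *Gys2* and *Pygl* of glycogen turnover, and the coactivator *Ppargc1a*. They are 9 of the 31053 genes listed in the count table, of which 17068 had at least 1 count. All 9 were counted in all 19 liver libraries and passed the filter on low counts in each comparison.

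The study asked how delivery of miR-34b/c to hepatocytes alters livers with thioacetamide (TAA) induced fibrosis. Livers of male C57BL6J mice, 6 to 8 weeks old at the start, fell into 3 groups: 5 libraries from mice labelled PBS (vehicle), for which the labels name no vector, 7 from TAA mice given AAV8 TBG eGFP (AAV-GFP) and 7 from TAA mice given AAV8 TBG miR34b/c (AAV-miR-34b/c). TAA, a toxin activated in pericentral hepatocytes, was given in rising doses for 12 weeks, the vector was injected after 10 weeks, and livers were taken 4 weeks later. AAV-miR-34b/c is a mixture of a vector for each miRNA, and the TBG promoter limits expression from both kinds of vector to hepatocytes. Vehicle and TAA mice therefore differ in TAA and vector together, and these cannot be told apart. Whole liver was used, so that fewer hepatocytes and less RNA per hepatocyte cannot be told apart either. The labels call the libraries biological replicates and say nothing more of the animals behind them, and p-values measure only the spread between these libraries. Feeding state and time of day at sacrifice are not given in the sources used here.

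Between meals the liver releases glucose. Pyruvate is carboxylated by pyruvate carboxylase (*Pcx*), the product is turned into phosphoenolpyruvate by *Pck1*, *Fbp1* removes a phosphate from fructose bisphosphate, and the catalytic subunit of glucose-6-phosphatase (*G6pc*) frees glucose in the endoplasmic reticulum. After a meal, glucose enters through GLUT2 (*Slc2a2*), is stored as glycogen by *Gys2* or broken down to pyruvate by liver pyruvate kinase (*Pklr*), and glycogen phosphorylase (*Pygl*) reverses the storage. *Pck1* and *G6pc* are classical targets of glucagon and insulin signalling, in which *Ppargc1a*, encoding PGC-1α, acts as a coactivator, and several of these genes also follow the daily clock of the liver.

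The mature sequence of mmu-miR-34b-5p (RefSeq, GRCm38.p6, chr9:51103610-51103632, minus strand) is shown because 1 of the vectors delivers this miRNA, and its seed, bases 2 to 8, is in capitals.

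mmu-miR-34b-5p: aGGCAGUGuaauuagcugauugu

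The match to this seed in a transcript reads CACTGCC. It occurred in the longest annotated 3′ UTR of 0 of the 9 genes, whose 3′ UTRs ran from 172 bases in *Pygl* to 3930 bases in *Ppargc1a*, and in 1726 of 9128 tested genes with a 3′ UTR (18.9%). *G6pc*, with a 3′ UTR of 1104 bases, and *Slc2a2*, with 3883 bases, are the genes with called changes below, and neither holds these letters. This says only that these 7 letters are not in these windows.

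Promoter sequence of RefSeq (GRCm38.p6) was found for 8 of the 9 genes, *Gys2* excepted. Stretches before the start site are shown for *G6pc* and *Slc2a2*, which have called changes, and for *Pck1* and *Ppargc1a*, which share hormonal control with *G6pc*. The *Pck1* stretch lies at chr2:173152848-173153047 on the plus strand, that of *G6pc* at chr11:101367466-101367560 on the plus strand, that of *Slc2a2* at chr3:28697703-28697902 on the plus strand and that of *Ppargc1a* at chr5:51567727-51567926 on the minus strand. The *G6pc* stretch covers only -250 to -156 from the RefSeq start, and the nearest 155 bases are not shown because GENCODE annotates them as part of the gene. For *Slc2a2* the stretch runs from -200 to -1, for *Pck1* from -225 to -26 and for *Ppargc1a* from -201 to -2. Capitals mark CGTCA, which is TGACG on the other strand, a part of the binding site of the cAMP-responsive factor CREB.

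*Pck1*: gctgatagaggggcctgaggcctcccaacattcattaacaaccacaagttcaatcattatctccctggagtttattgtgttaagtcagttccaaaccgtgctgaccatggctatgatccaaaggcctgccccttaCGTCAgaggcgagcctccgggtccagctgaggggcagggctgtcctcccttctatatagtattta

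*G6pc*: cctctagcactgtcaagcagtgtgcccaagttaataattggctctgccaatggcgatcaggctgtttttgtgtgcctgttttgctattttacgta

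*Slc2a2*: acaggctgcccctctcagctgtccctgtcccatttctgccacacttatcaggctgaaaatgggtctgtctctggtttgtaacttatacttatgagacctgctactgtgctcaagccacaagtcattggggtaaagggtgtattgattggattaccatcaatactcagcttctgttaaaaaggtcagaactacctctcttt

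*Ppargc1a*: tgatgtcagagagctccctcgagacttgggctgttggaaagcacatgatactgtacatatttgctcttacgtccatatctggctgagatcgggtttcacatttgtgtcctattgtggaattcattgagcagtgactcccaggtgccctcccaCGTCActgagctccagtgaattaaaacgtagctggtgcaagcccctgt

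The motifs searched on both strands over the 250 bases before the start were TGACG, the E box CACGTG, the forkhead motif TGTTTAC and the D box TTATGTAA, and no matches in these genes overlapped each other. TGACG was held by *Pck1*, *Pygl* and *Ppargc1a*, beside 17.8% of 32851 promoters. CACGTG was held by *Pcx*, beside 6.02% of promoters. TGTTTAC, in 3.17% of promoters, and TTATGTAA, in 0.819%, were found in none of the 8 genes, and *G6pc* and *Slc2a2* held none of the 4 motifs in this window.

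The libraries were prepared from the 3′ ends of polyadenylated RNA and held 2214073 to 4145454 counts in vehicle, 2463842 to 4383805 in AAV-GFP and 2717503 to 5208405 in AAV-miR-34b/c. All 12 hepatocyte markers were present in each group, and their summed level was 94344 to 116076, 93849 to 105648 and 102277 to 156397 CPM (counts per 1000000 counts, scaled by TMM). The vector miRNAs and GFP were not analysed here, so that the labels were not checked against them. Some libraries of a group were closer to each other than the rest, namely vehicle 1 and 4, vehicle 3 and 5, AAV-GFP 1 and 2, AAV-miR-34b/c 1 and 2, 3 and 4, and 5 and 7, and calls of the 9 genes are given with these pairs summed where that changes them. For the genes of other lists this was not looked at singly, and over all genes the number of calls with pairs summed was 227 in place of 1212, 87 in place of 311 and 331 in place of 2037 in AAV-GFP against vehicle, AAV-miR-34b/c against AAV-GFP and AAV-miR-34b/c against vehicle. Mitochondrial genes took 3.73% to 5.65% of counts in vehicle, 4.83% to 9.41% in AAV-GFP and 3.71% to 10.8% in AAV-miR-34b/c, and *Gm42418*, which overlaps a ribosomal RNA repeat, 3.83% to 5.86%, 2.71% to 6.17% and 1.07% to 4.42%. Their part in the results below was not tested. The AAV-miR-34b/c libraries held more transcripts of neutrophil markers: of the 10 T, B and neutrophil markers, 3 could be tested and 2, *S100a8* and *S100a9*, were higher than in AAV-GFP (log2 fold change 4.36 and 4.31, adjusted p = 0.00243 and 0.00415). Their summed level was 36.3 to 96.4 CPM in vehicle, where *Cd3g*, *Cd8a*, *Cd79a* and *Ly6g* were at 0, 27.4 to 86.2 CPM in AAV-GFP and 71.8 to 1867 CPM in AAV-miR-34b/c, where *Cd79a* was at 0.

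**Figure D1:**
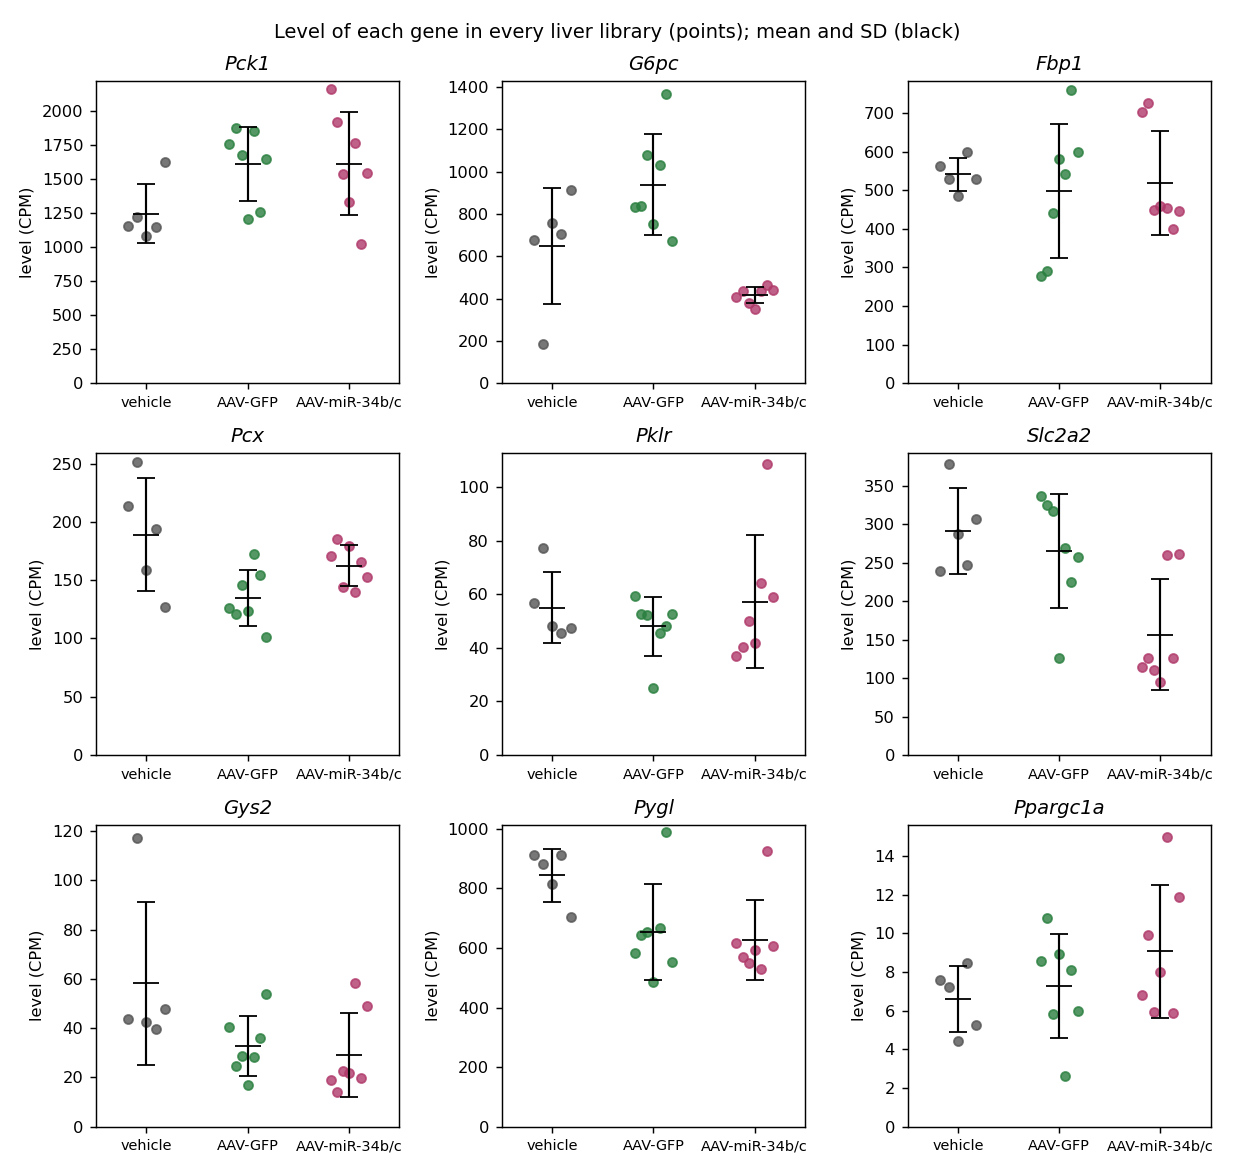
Level of each of the 9 genes in CPM (vertical axes, starting at 0) in 5 libraries of vehicle mice, 7 of AAV-GFP mice and 7 of AAV-miR-34b/c mice. Each point is a library and the black line and bar are the mean and SD. *G6pc* separates all AAV-miR-34b/c libraries (351 to 465 CPM) from all AAV-GFP libraries (671 to 1368 CPM), and vehicle 2 lies apart in *G6pc* and *Gys2*.

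*G6pc* (ENSMUSG00000078650, chr11:101367561-101377903 in GRCm38, plus strand) showed the clearest difference between the TAA groups. It stood at 674, 184, 758, 706 and 914 CPM in vehicle 1 to 5. In AAV-GFP it ran from 671 over a median of 835 to 1368 CPM, and in AAV-miR-34b/c from 351 over 435 to 465 CPM. Every AAV-miR-34b/c library was below every AAV-GFP library, and vehicle 2 was below all other libraries of the study. The group means were 648 ± 275 CPM (SD, n = 5) in vehicle, 938 ± 239 CPM (SD, n = 7) in AAV-GFP and, after AAV-miR-34b/c, 417 ± 39.9 CPM (SD, n = 7), so that the spread was narrowest in the last group. The counts behind these levels were 560 to 2915, 2123 to 4716 and 877 to 2298, and counting error is small beside the spread between libraries.

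With AAV-miR-34b/c, *G6pc* fell by 1.18 on the log2 scale against AAV-GFP (SE 0.16, 95% interval -1.51 to -0.85, adjusted p = 0.000279), a level 2.27-fold lower. The two-sided exact permutation test gave p = 0.000583, the smallest that 7 against 7 libraries allow. The call held with each of the 14 libraries left out in turn (-1.25 to -1.07) and under all 11 alternatives (-1.36 to -1.15). The largest adjusted p of these alternatives was 0.0226, with close pairs summed. The permutation test counted each library of a close pair singly. The libraries AAV-miR-34b/c 5 and 7, with 75.7 and 71.8 CPM of T, B and neutrophil markers, within the AAV-GFP range, had 435 and 442 CPM of *G6pc* and were also below all AAV-GFP libraries. The part of these markers in the fall was not tested. Against vehicle, *G6pc* was at a log2 fold change of 0.54 in AAV-GFP (SE 0.28, adjusted p = 0.202) and -0.63 in AAV-miR-34b/c (SE 0.26, adjusted p = 0.0834). Both values rest in part on vehicle 2, since without it they were 0.31 (adjusted p = 0.318) and -0.87 (adjusted p = 0.00136), the latter then called. The vehicle libraries other than vehicle 2, 4 of 5, were above all AAV-miR-34b/c libraries.

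*Pck1* (ENSMUSG00000027513, chr2:173153048-173159273, plus strand), the enzyme that commits carbon to gluconeogenesis, did not separate the TAA groups. It stood at 1151, 1218, 1078, 1145 and 1620 CPM in vehicle, at 1202 to 1872 CPM with a median of 1676 in AAV-GFP, and at 1022 to 2161 CPM with a median of 1541 in AAV-miR-34b/c. Vehicle 5 was high for its group, 5 of 7 AAV-GFP libraries were above all vehicle libraries, and the TAA groups overlapped over most of their range. The log2 fold change was 0.38 in AAV-GFP against vehicle (SE 0.17, adjusted p = 0.154, exact permutation p = 0.0202), -0.01 in AAV-miR-34b/c against AAV-GFP (adjusted p = 0.99, 95% interval -0.37 to 0.35) and 0.38 against vehicle (adjusted p = 0.143). None of these passed the test across all genes.

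*Fbp1* (ENSMUSG00000069805, chr13:62864753-62888282, minus strand), which bypasses the phosphofructokinase step, had similar group means and unequal spreads. It stood at 562, 530, 486, 598 and 529 CPM in vehicle, at 277 to 758 CPM with a median of 541 in AAV-GFP and at 400 to 726 CPM with a median of 454 in AAV-miR-34b/c. The low AAV-GFP values came from AAV-GFP 1 and 2 (277 and 291 CPM) and the high AAV-miR-34b/c values from AAV-miR-34b/c 1 and 2 (702 and 726 CPM), and both are close pairs of libraries. The log2 fold changes were -0.12 (adjusted p = 0.755), 0.05 (adjusted p = 0.954) and -0.06 (adjusted p = 0.839) for AAV-GFP against vehicle, AAV-miR-34b/c against AAV-GFP and AAV-miR-34b/c against vehicle.

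*Pcx* (ENSMUSG00000024892, chr19:4510472-4621752, plus strand), the mitochondrial entry to the pathway, was lowest on average in AAV-GFP. It stood at 214, 252, 159, 194 and 127 CPM in vehicle, at 101 to 173 CPM with a median of 126 in AAV-GFP and at 140 to 185 CPM with a median of 166 in AAV-miR-34b/c. Vehicle 5 lay within the AAV-GFP values and the other vehicle libraries in the upper part of that range or above it. The log2 fold change was -0.48 in AAV-GFP against vehicle (SE 0.18, adjusted p = 0.0803, exact permutation p = 0.0328). It passed the threshold in 1 of 12 fits with a library left out, without vehicle 5 (-0.59, adjusted p = 0.0435), and in 0 of 11 alternatives. It was 0.26 in AAV-miR-34b/c against AAV-GFP (adjusted p = 0.396, exact permutation p = 0.0321) and -0.22 against vehicle (adjusted p = 0.351). *Lrfn4* lies on the opposite strand within *Pcx*, and strand use in counting is not given in the sources used here.

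*Pklr* (ENSMUSG00000041237, chr3:89136142-89146784, plus strand), the last step of glycolysis in hepatocytes, overlapped between all groups. It stood at 56.6, 77.4, 48.3, 45.5 and 47.3 CPM in vehicle, at 24.8 to 59.4 CPM with a median of 52.4 in AAV-GFP and at 36.9 to 108.6 CPM with a median of 49.9 in AAV-miR-34b/c. AAV-GFP 4 was the lowest of all libraries and AAV-miR-34b/c 6 the highest. The log2 fold changes were -0.20 (adjusted p = 0.539) in AAV-GFP against vehicle, 0.25 (adjusted p = 0.691) in AAV-miR-34b/c against AAV-GFP and 0.07 (adjusted p = 0.874) in AAV-miR-34b/c against vehicle. *Hcn3* overlaps *Pklr* on the other strand.

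*Slc2a2* (ENSMUSG00000027690, chr3:28697903-28731359, plus strand), encoding the bidirectional glucose transporter of the hepatocyte membrane, was lower in most AAV-miR-34b/c libraries. It stood at 239, 378, 287, 247 and 307 CPM in vehicle. In AAV-GFP it ran from 126 over a median of 270 to 337 CPM, and in AAV-miR-34b/c from 94.5 over 126 to 261 CPM. The AAV-miR-34b/c libraries split: libraries 5 and 7, a close pair, were at 260 and 261 CPM, within the vehicle range, and the other 5 at 94.5 to 126 CPM, below all vehicle libraries. AAV-GFP 4, at 126 CPM, was the only AAV-GFP library at that low level.

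Against vehicle, *Slc2a2* fell by 0.90 on the log2 scale in AAV-miR-34b/c (SE 0.25, 95% interval -1.43 to -0.37, adjusted p = 0.0182, exact permutation p = 0.00884), from 292 ± 55.9 CPM (SD, n = 5) to 156 ± 72.1 CPM (SD, n = 7). The call held with each of the 12 libraries left out in turn (-1.07 to -0.79) and in 8 of 11 alternatives. It was lost with close pairs summed (-1.0, adjusted p = 0.0861), with the mean level of 14 clock genes as a covariate (-0.45, adjusted p = 0.0792) and with that of 10 clock genes grouped as 1 phase (-0.29, adjusted p = 0.329). The clock level itself differed between these groups, so that a fit with it cannot fully tell the clock level from the group. Against AAV-GFP, at 266 ± 73.8 CPM (SD, n = 7), the log2 fold change was -0.78 (SE 0.26, adjusted p = 0.114, exact permutation p = 0.0204). That difference passed the threshold in 0 of 11 alternatives and in 3 of 14 fits with a library left out. These were without AAV-GFP 4 (-0.90, adjusted p = 0.044), without AAV-miR-34b/c 5 (-0.95, adjusted p = 0.0466) or without AAV-miR-34b/c 7 (-0.95, adjusted p = 0.0464). With the covariates of 14 and of 10 clock genes it was -0.47 (adjusted p = 0.197) and -0.53 (adjusted p = 0.125). Between AAV-GFP and vehicle the log2 fold change was -0.13 (adjusted p = 0.706). *1700112D23Rik* overlaps *Slc2a2* on the other strand.

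*Gys2* (ENSMUSG00000030244, chr6:142422613-142473109, minus strand), the liver glycogen synthase, had lower means in both TAA groups beside a widely spread vehicle group. It stood at 43.5, 117, 42.5, 39.7 and 47.7 CPM in vehicle, at 16.8 to 53.7 CPM with a median of 28.7 in AAV-GFP and at 14.3 to 58.2 CPM with a median of 21.6 in AAV-miR-34b/c. Vehicle 2, the library lowest in *G6pc*, was the highest in *Gys2*. In each TAA group 5 of 7 libraries were below all vehicle libraries, and AAV-miR-34b/c 5 and 7, at 58.2 and 48.8 CPM, were again the highest of their group. The log2 fold change was -0.83 in AAV-GFP against vehicle (SE 0.28, adjusted p = 0.0587) and -0.99 in AAV-miR-34b/c against vehicle (SE 0.35, adjusted p = 0.0516), and neither passed the threshold. Both depend on single libraries and on the model. Without vehicle 2 they were -0.40 (adjusted p = 0.284) and -0.57 (adjusted p = 0.224). The former passed the threshold without AAV-GFP 6 (-0.85, adjusted p = 0.0493) or AAV-GFP 7 (-0.99, adjusted p = 0.017) and in 3 of 11 alternatives. The latter passed it without AAV-miR-34b/c 5 (-1.25, adjusted p = 0.017) or 7 (-1.16, adjusted p = 0.0333) and in 6 of 11 alternatives. With the all-clock covariate the value in AAV-GFP against vehicle was -0.38 (adjusted p = 0.336). With the single-phase clock covariate it was -0.11 (adjusted p = 0.879). In AAV-miR-34b/c against vehicle the value ran from -1.26 to -0.059 over the 11 alternatives, with adjusted p up to 0.908. The log2 fold change between the TAA groups was -0.18 (adjusted p = 0.856, 95% interval -0.82 to 0.47).

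*Pygl* (ENSMUSG00000021069, chr12:70190811-70231488, minus strand), the liver glycogen phosphorylase, was likewise at lower means in both TAA groups. It stood at 912, 881, 814, 912 and 702 CPM in vehicle, at 486 to 988 CPM with a median of 643 in AAV-GFP and at 531 to 924 CPM with a median of 593 in AAV-miR-34b/c. In each TAA group 6 of 7 libraries were below all vehicle libraries and the remaining library, AAV-GFP 6 or AAV-miR-34b/c 6, was above all of them. The log2 fold change was -0.37 in AAV-GFP against vehicle (SE 0.17, adjusted p = 0.16, exact permutation p = 0.0391) and -0.43 in AAV-miR-34b/c against vehicle (SE 0.16, adjusted p = 0.0581, exact permutation p = 0.0139). Without AAV-GFP 6 the former was -0.49 (adjusted p = 0.0258) and without AAV-miR-34b/c 6 the latter was -0.54 (adjusted p = 0.0108), and they passed the threshold in 2 and 5 of 11 alternatives. The value between the TAA groups was -0.07 (adjusted p = 0.905). *F730035M05Rik* overlaps *Pygl* on the other strand.

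*Ppargc1a* (ENSMUSG00000029167, chr5:51454250-51567726, minus strand) had few counts, 10 to 35 in vehicle, 12 to 40 in AAV-GFP and 20 to 42 in AAV-miR-34b/c. It stood at 7.60, 7.25, 4.43, 8.48 and 5.25 CPM in vehicle, at 2.62 to 10.8 CPM with a median of 8.12 in AAV-GFP and at 5.87 to 15 CPM with a median of 8.01 in AAV-miR-34b/c. The groups overlapped, and AAV-miR-34b/c 5, at 15 CPM, was the highest library. The log2 fold changes of 0.12 (adjusted p = 0.842), 0.30 (adjusted p = 0.716) and 0.42 (adjusted p = 0.313), in the order AAV-GFP against vehicle, AAV-miR-34b/c against AAV-GFP and AAV-miR-34b/c against vehicle, did not pass the threshold. The locus overlaps 4 other annotated genes, of which *Gm42614*, *Gm42615* and *Gm43605* are on the same strand.

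Counted as a group, 0 or 1 of the 9 genes was called in each comparison. With so few genes, these counts say little beside the shares called among all genes. In AAV-GFP against vehicle 0 of 9 were called by edgeR, beside 12.7% of the 9522 genes tested (7.54% higher, 5.19% lower), with 4 at an unadjusted p under 0.05 (*Pck1*, *Pcx*, *Gys2* and *Pygl*), 0 called by DESeq2 and 2 by limma-voom. With AAV-miR-34b/c against AAV-GFP 1 of 9 was called, *G6pc*, beside 3.36% of 9252 genes (1.95% higher, 1.42% lower), and in AAV-miR-34b/c against vehicle 1 of 9, *Slc2a2*, beside 21.9% of 9290 genes (12.2% higher, 9.75% lower). In the last comparison 4 had an unadjusted p under 0.05, DESeq2 called 3 and limma-voom and library size scaling 4 each, so that the count depends on the method. Groups that did not overlap were found for *G6pc* in AAV-miR-34b/c against AAV-GFP, beside 1.38% of genes, and for no other of the 9 genes in any comparison, beside 4.79% of genes in AAV-GFP against vehicle and 7.78% in AAV-miR-34b/c against vehicle. The median log2 fold change of the 9 genes was -0.13, -0.01 and -0.22 in the 3 comparisons, beside -0.01, -0.01 and 0.02 for all genes. The first and second comparisons share the AAV-GFP libraries, the first and last the vehicle libraries, and the second and last the AAV-miR-34b/c libraries.

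**Figure D2:**
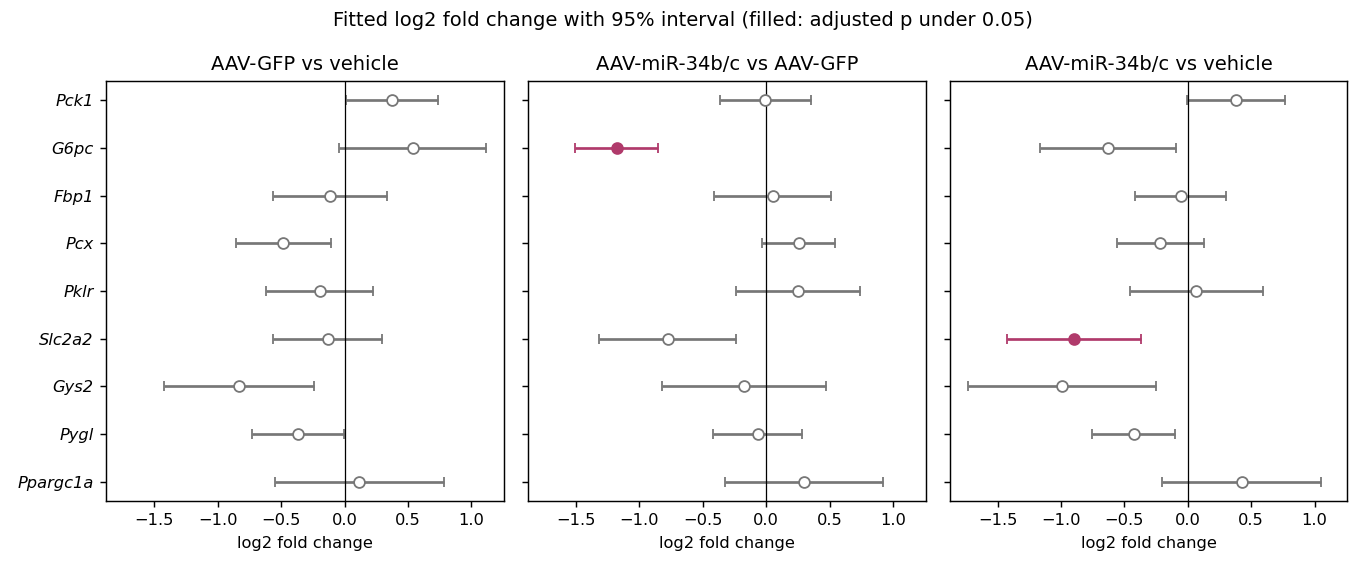
Fitted log2 fold change (horizontal axes) of each gene with its 95% interval in the 3 comparisons. Filled points passed an adjusted p of 0.05, which only *G6pc* did in AAV-miR-34b/c against AAV-GFP (-1.18) and only *Slc2a2* in AAV-miR-34b/c against vehicle (-0.90).

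Scaling by library size alone moved the median of all genes to -0.20 in AAV-miR-34b/c against AAV-GFP and to -0.13 against vehicle. Under it 119 of 624 called genes were higher (19.1%, beside 57.9% with TMM) in the first of these and 730 of 2346 (31.1%, beside 55.5%) in the second. Relative to those medians *G6pc* was at -1.16 against AAV-GFP and *Slc2a2* at -0.88 against vehicle. *Fbp1* against AAV-GFP was at -0.15 under that scaling and 0.05 relative to the median, and *Pklr* against vehicle at -0.06 and 0.07.

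The split of *Slc2a2* and *Gys2* among the AAV-miR-34b/c libraries went with genes of the daily clock. Libraries 5 and 7 of this group are a close pair, as are 1 and 2, and 3 and 4. With these pairs summed the group holds 4 samples. The mean level of 10 clock genes grouped as 1 phase, among them *Dbp*, *Nr1d1*, *Nr1d2* and the *Per* genes, was 4.03 to 4.96 log2 CPM in vehicle. It was 2.38 in AAV-GFP 4 and 3.11 to 4.27 in the other AAV-GFP libraries, and 4.51 and 4.58 in AAV-miR-34b/c 5 and 7 and 2.04 to 2.87 in the other AAV-miR-34b/c libraries. The libraries with low *Slc2a2*, AAV-GFP 4 among them, had the lowest clock levels. The T, B and neutrophil markers split the AAV-miR-34b/c libraries in the same way, with 75.7 and 71.8 CPM in libraries 5 and 7 and 140 to 1867 CPM in the other 5, and stood at 58.1 CPM in AAV-GFP 4. The clock level was used as a covariate. It differs between vehicle and most TAA libraries, so that in fits against vehicle it cannot be fully told apart from the group. The 14-gene mean also takes in genes called in opposite directions, such as *Clock* and *Per3*. The part of the T, B and neutrophil markers in the levels of *Slc2a2*, *Gys2* and *G6pc* was not tested. Over the 19 libraries *Slc2a2* and *Gys2* correlated at r = 0.75 after group means were removed, a description of libraries that share these clock differences. *G6pc* stood at 435 and 442 CPM in AAV-miR-34b/c 5 and 7 and at 752 CPM in AAV-GFP 4, within the range of the other libraries of each group, and its fall against AAV-GFP was -1.17 (adjusted p = 0.00134) and -1.18 (adjusted p = 0.000917) with the all-clock and single-phase covariates. Of 13 clock genes tested, 6 were called in AAV-GFP against vehicle, with *Per3* (-2.59), *Dbp* (-1.54) and *Nr1d2* (-0.90) lower and *Clock* (1.03) and *Nr1d1* (1.31) higher on the log2 scale. *Nr1d1* is among the 10 genes grouped as 1 phase, which thus did not all move together. The other call was *Arntl*, with 0 to 5 counts in vehicle, 1 to 26 in AAV-GFP and 1 to 39 in AAV-miR-34b/c. It passed the filter on low counts through the TAA groups, where it is high, in this and the next comparison. Nothing is read from its calls. Compared with vehicle, AAV-miR-34b/c had 5 of 12 called, with *Per3* (-2.23), *Per1* (-0.84) and *Nr1d2* (-0.92) lower, *Clock* (0.87) higher and *Arntl* as the other call. For AAV-miR-34b/c against AAV-GFP edgeR called 0 of 10 tested, with 2 at an unadjusted p under 0.05 and 0 by DESeq2 and by limma-voom.

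**Figure D3:**
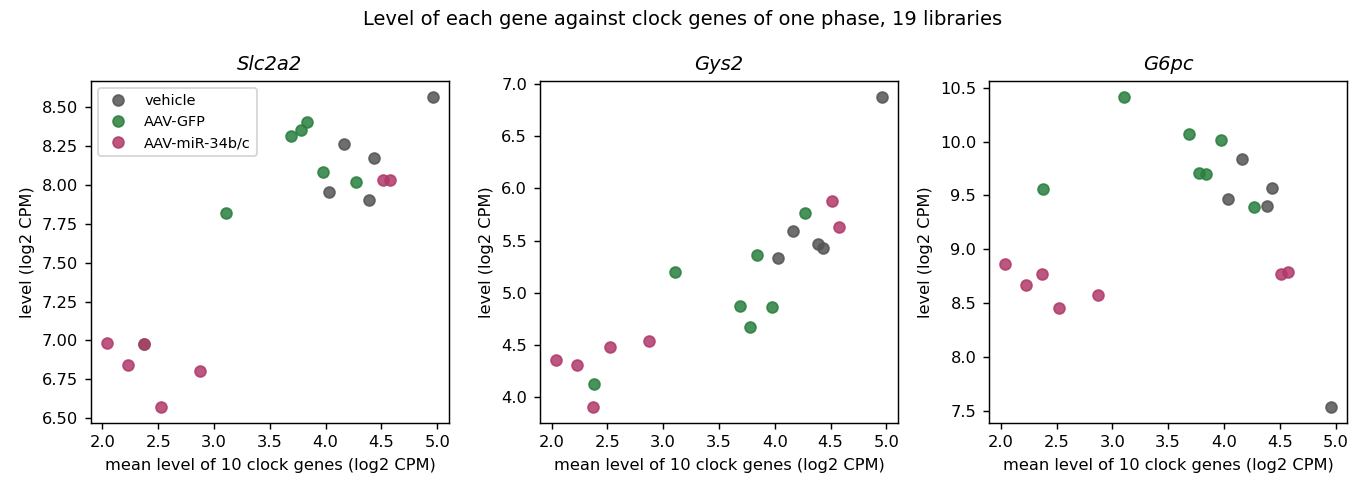
Level of *Slc2a2*, *Gys2* and *G6pc* (vertical axes, log2 CPM) against the mean level of 10 clock genes grouped as 1 phase (horizontal axes, log2 CPM) in 19 libraries, with a point for each library and a colour for each group. AAV-miR-34b/c 5 and 7 (4.51 and 4.58) sit apart from the other AAV-miR-34b/c libraries (2.04 to 2.87) in the panels of *Slc2a2* and *Gys2*, and at the same height as them in that of *G6pc*. Libraries 5 and 7 are a close pair.

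Around *G6pc*, edgeR called no other of the 13 gluconeogenic enzymes tested between the TAA groups, and the median of the list was 0.11. With *G6pc* counted, 3 had an unadjusted p under 0.05, DESeq2 called 1 and limma-voom 2. *Slc37a4*, the transporter that brings glucose 6-phosphate to the *G6pc* enzyme, was lower than vehicle in both TAA groups, at 160 ± 17.9 CPM (SD, n = 5) in vehicle, 83.9 ± 27.2 CPM (SD, n = 7) in AAV-GFP (log2 fold change -0.93, adjusted p = 0.00688) and 102 ± 19.1 CPM (SD, n = 7) with AAV-miR-34b/c (-0.65, adjusted p = 0.00687). Between the TAA groups its log2 fold change was 0.27 (adjusted p = 0.58). Of 14 tested, 2 were called in AAV-GFP against vehicle and 4 in AAV-miR-34b/c against vehicle. The others were *Gapdh*, higher in both (1.15 and 1.79), and, in AAV-miR-34b/c only by this threshold, *Gpi1* (0.70) and *Mdh2* (-0.50), whose difference from AAV-GFP was not called. *Gapdh* has many near-identical pseudogenes and its count is uncertain.

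Of 13 glycolysis and fructose enzymes, 1 was called in AAV-GFP against vehicle. Compared with vehicle, AAV-miR-34b/c livers had 4 of 13 called, among them *Tkfc* (0.56), of fructose breakdown, and *Ldha* (0.43), lactate dehydrogenase, both higher, and *Pdhb* (-0.80), of pyruvate dehydrogenase, lower. The TAA groups differed in 0 of 13 by edgeR, with 2 at an unadjusted p under 0.05, 2 by DESeq2 and 1 by limma-voom.

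In the list of glycogen genes the gene called between the TAA groups was *Ppp1r3g*, a glycogen-targeting subunit of protein phosphatase 1. It stood at 23.5 ± 13.6 CPM (SD, n = 7) in AAV-GFP, with 25 to 122 counts per library, and at 2.56 ± 2.59 CPM (SD, n = 7) and 0 to 22 counts after AAV-miR-34b/c. It passed the filter on low counts through the AAV-GFP libraries, where it is high. Nothing is therefore read from its call (edgeR, adjusted p = 0.0013), and with libraries at 0 no fold is given. In vehicle it stood at 9.79 ± 10.1 CPM (SD, n = 5) and 1 to 56 counts. Another targeting subunit, *Ppp1r3b*, was higher than vehicle in AAV-GFP (0.92, adjusted p = 0.0426) and in AAV-miR-34b/c (1.78, adjusted p = 0.00254). Of 17 tested, 4 were called in AAV-GFP against vehicle, all higher, among them the phosphorylase kinase subunit *Phkg2* (1.18) and the synthase kinases *Gsk3b* (1.32) and *Gsk3a* (1.18). Of 16 tested in AAV-miR-34b/c against vehicle, *Pgm1* (0.95) and *Gsk3b* (1.05) were among 4 higher, and *Ugp2* (-1.17), which makes the UDP-glucose used by *Gys2*, and *Phkb* (-0.78) were the 2 lower. *Ugp2* stood at 235 ± 55.3, 181 ± 63.7 and 105 ± 40.6 CPM (SD) in the vehicle, AAV-GFP and miR-34b/c groups.

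Among 5 sugar transporters tested, the fructose transporter *Slc2a5* was lower than vehicle in AAV-GFP (-1.62, adjusted p = 0.00415) and AAV-miR-34b/c (-1.39, adjusted p = 0.0145), at 19 to 58, 5 to 20 and 3 to 22 counts. The urate and hexose transporter *Slc2a9* was higher in both (0.66 and 0.91), and *Slc2a2* was also called in AAV-miR-34b/c against vehicle. The list thus had 2 of 5 and 3 of 5 called against vehicle. The TAA groups gave 0 calls of 5 by edgeR, with 1 at an unadjusted p under 0.05 and 0 by DESeq2 and by limma-voom. Of the paralogues used outside hepatocytes, edgeR called 0 of 6 in AAV-GFP against vehicle (1 at an unadjusted p under 0.05, 1 by DESeq2 and 1 by limma-voom), 0 of 5 between the TAA groups (0 by each of these counts) and 1 of 6 in AAV-miR-34b/c against vehicle, the pyruvate kinase of other tissues *Pkm* (0.79, adjusted p = 0.00873). With so few genes, the counts of these paralogues are near the shares called among all genes.

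Of the hormone and transcription genes, 8 of 27 were called in AAV-GFP against vehicle (6 higher, 2 lower), 3 of 27 in AAV-miR-34b/c against AAV-GFP (all lower) and 4 of 26 in AAV-miR-34b/c against vehicle (all higher). *Nr4a1*, an immediate early nuclear receptor induced by cAMP, had 0 to 4 counts per library in vehicle, 15 to 56 in AAV-GFP and 0 to 5 in AAV-miR-34b/c. It is 1 of the 3 called lower between the TAA groups but passed the filter on low counts through the AAV-GFP libraries, where it is high, so that nothing is read from its call. *Irs1*, an insulin receptor substrate, fell by 1.02 (adjusted p = 0.00669), and in the same comparison *Txnip*, an inhibitor of glucose uptake, fell by 1.54 (adjusted p = 0.0181). *Irs2*, the other substrate, was higher than vehicle in AAV-GFP (2.27, adjusted p = 0.00442) and AAV-miR-34b/c (2.16, adjusted p = 0.00627), as were the nuclear receptors *Nr0b2* (1.86 and 1.77) and *Hnf4a* (0.86 and 1.21). *Mlx* (-0.81) and *Esrra* (-0.92) were the 2 lower in AAV-GFP, and *Akt2* (0.84) was higher in AAV-miR-34b/c.

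**Figure D4:**
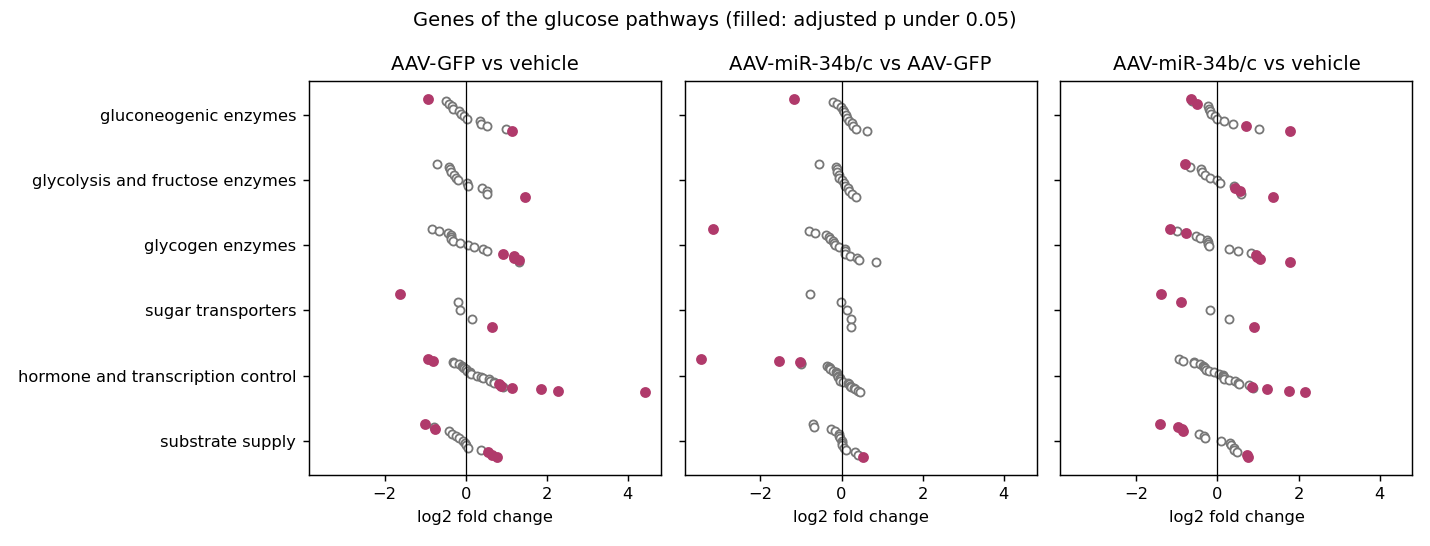
Log2 fold change (horizontal axes) of the tested genes of 6 lists, 1 row per list and 1 point per gene, in the 3 comparisons. Filled points passed an adjusted p of 0.05. In AAV-miR-34b/c against AAV-GFP the called *G6pc* was at -1.18 and the called *Irs1* at -1.02. The called *Ppp1r3g* of the glycogen row and *Nr4a1* of the control row passed the filter on low counts through the AAV-GFP libraries. Nothing is read from the side on which these points lie.

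Genes that supply lactate, alanine and glycerol were called in 5 of 15, 1 of 15 and 6 of 15 cases in the order AAV-GFP against vehicle, AAV-miR-34b/c against AAV-GFP and AAV-miR-34b/c against vehicle. *Gpt2*, which turns alanine into pyruvate in mitochondria, stood at 385 ± 68.4 CPM (SD, n = 5) in vehicle and was lower in both TAA groups (-1.0 and -0.98). *Mpc1*, a subunit of the mitochondrial pyruvate carrier that feeds *Pcx*, was at 86.3 ± 15.8, 51.4 ± 12.0 and 32.5 ± 10.1 CPM (SD) in the 3 groups, lower than vehicle by 0.74 and 1.41 on the log2 scale (adjusted p = 0.0124 and 0.000321). *Got2* (0.78 and 0.72) and the lactate transporter *Slc16a1* (0.64 and 0.75) were higher in both, *Gpd1* (0.56) in AAV-GFP, and glycerol kinase *Gk* (-0.87) lower in AAV-miR-34b/c. Between the TAA groups *Ldhd*, an oxidiser of D-lactate, was higher (0.54, adjusted p = 0.0209).

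Lists of genes known to respond to fasting and to feeding showed calls of both kinds. Of 10 fasting-induced genes, *Irs2* and *Igfbp1* (2.20, adjusted p = 0.00964) were higher in AAV-GFP than in vehicle. Between the TAA groups *Cyp4a14*, a fatty acid hydroxylase induced through PPARα, was lower after AAV-miR-34b/c (-2.67, adjusted p = 0.00477), with *Txnip*. Of 10 tested in AAV-miR-34b/c against vehicle 3 were called, 2 higher, *Irs2* and *Igfbp1* (2.0), and 1 lower, and the medians of the list were 0.39 in AAV-GFP against vehicle, -0.28 in AAV-miR-34b/c against AAV-GFP and -0.30 in AAV-miR-34b/c against vehicle. Their summed level was 1534 to 2435 CPM in vehicle, 2305 to 3406 CPM in AAV-GFP and 1351 to 2783 CPM in AAV-miR-34b/c. Of 9 feeding-induced genes, the lipogenic *Fasn* and *Acaca* were higher than vehicle in AAV-GFP (0.86 and 0.85) and AAV-miR-34b/c (1.38 and 1.58), and *Elovl6* was higher in AAV-miR-34b/c than in AAV-GFP (0.78, adjusted p = 0.0106). The medians of that list were 0.18, 0.50 and 0.73 in the same order, and its summed level was 2148 to 4783, 2056 to 4870 and 3712 to 8363 CPM. The part of feeding state in the level of *G6pc* was not tested.

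Zonation markers were looked at because gluconeogenesis is a periportal function. Of 12 periportal markers, *Pck1* among them, 3 were called in AAV-GFP against vehicle, 2 higher, *Aldh1b1* (1.69) and *Gls2* (0.71), and 1 lower, 1 between the TAA groups, *Ctsc* (1.21, higher after AAV-miR-34b/c), and 5 in AAV-miR-34b/c against vehicle, 3 higher, among them *Aldh1b1* (1.60) and *Hsd17b13* (0.57), and 2 lower, among them *Cps1* (-0.90). The median log2 fold change of the list was 0.07, -0.02 and 0.30 in these comparisons. Their summed level was 8152 to 8678 CPM in vehicle, 6949 to 9631 CPM in AAV-GFP and 6391 to 9713 CPM in AAV-miR-34b/c. Of 12 pericentral markers 3 were called lower in AAV-GFP than in vehicle, *Oat* (-1.13) and *Slc1a2* (-1.03) among them. Of 11 tested in AAV-miR-34b/c against vehicle 4 were lower, among them *Oat* (-1.12) and *Rgn* (-0.67). Between the TAA groups 8 of 11 had a fold change below 0 and 1 was called, higher. The median log2 fold change of the list was -0.37, -0.17 and -0.40 in AAV-GFP against vehicle, AAV-miR-34b/c against AAV-GFP and AAV-miR-34b/c against vehicle. The gene called between the TAA groups, the pericentral enzyme *Glul*, was at 632 ± 65.3, 374 ± 104 and 647 ± 153 CPM (SD) in the 3 groups (0.78 between the TAA groups, adjusted p = 0.039). The pericentral markers summed to 5148 to 5777, 2394 to 5008 and 3460 to 4084 CPM. The part of these markers in the differences of *G6pc* and *Slc2a2* was not tested.

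Of the remaining cell types, hepatocyte markers were called higher in 2 of 12 between the TAA groups, *Fgb* (1.35) and *Ambp* (1.14), and 3 of the 12 had a fold change below 0, none of them called by edgeR. Against vehicle 2 of 12 were called higher in AAV-GFP, *Hnf4a* and *Serpina1c* (0.64), and 5 of 12 in AAV-miR-34b/c, *Hnf4a* and *Serpina1c* (0.91) among them, with list medians of 0.03 and 0.36, against 0.20 between the TAA groups. Stellate cell markers were called in 4 of 10 higher in AAV-GFP against vehicle, *Col1a1* (2.42) and *Pdgfrb* (1.94) among them, and in 2 of 8 lower in AAV-miR-34b/c against AAV-GFP, *Col1a1* (-1.92) and *Col3a1* (-1.46). In the first of these comparisons 7 had a fold change above 0 and 3 below, and in the second 1 above and 7 below. Against vehicle, AAV-miR-34b/c livers had 0 of 8 called by edgeR, with 1 at an unadjusted p under 0.05, 1 by DESeq2 and 2 by limma-voom. The summed level of the stellate markers was 374 to 567.7 CPM in vehicle, 421 to 537 CPM in AAV-GFP and 266 to 495 CPM in AAV-miR-34b/c. Of 11 macrophage markers 4 were lower in AAV-GFP than in vehicle, among them *Vsig4* (-0.79) and *Clec4f* (-0.93), and their summed level was 520 to 1009, 444 to 724 and 653 to 889 CPM in the 3 groups. The macrophage markers *Cd5l* (0.86) and *C1qb* (0.94) were higher in AAV-miR-34b/c than in AAV-GFP, where 9 of the 11 had a fold change above 0 and 2 below. In AAV-miR-34b/c against vehicle 7 were above 0 and 4 below, 1 was called, lower, and the median was 0.02. The endothelial marker *Lyve1* (1.05) was higher in AAV-miR-34b/c than in AAV-GFP. *Lyve1* was the 1 endothelial marker of 9 called there, with 5 above 0, 4 below and a median of 0.08, and against vehicle AAV-miR-34b/c livers had *Lyve1* (1.46) called higher and *Cdh5* (-1.25) lower. Endothelial markers summed to 292 to 322, 241 to 308 and 283 to 380 CPM. Cholangiocyte markers had 2 of 8 genes tested, with *Spp1* (1.31) higher in AAV-GFP and *Sox9* (1.40) in AAV-miR-34b/c than in vehicle, and *Cftr* was at 0 in vehicle. They summed to 18.6 to 40.8, 53.6 to 97.4 and 49.9 to 119 CPM. Their part in the results of the 9 genes was not tested.

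The genes most like each member across the 19 libraries, out of 6531 with a mean of at least 10 CPM, were named by the correlation of log2 CPM, which also reflects the group differences and the close pairs of libraries. For *G6pc* they were *Ppp1r3g* (r = 0.85), which had 0 to 22 counts per library in AAV-miR-34b/c, and *Edem2* (0.82). *Ppp1r3g* met the mean of 10 CPM through the AAV-GFP libraries, where it is high, so that nothing is read from its likeness. For *Slc2a2* they were *Fbxo21* (0.89) and *Jade1* (0.87), and for *Gys2* the clock output gene *Dbp* (0.87) and *Ipo5* (0.83). *Fbp1* was followed most closely by *Coq3* (0.92) and *Pcbd1* (0.90), *Pcx* by *Proz* (0.85) and *Tfr2* (0.82), and *Pck1* by *Gc* (0.79) and *Sod2* (0.79). *Pygl* was most like *Usp14* (0.82) and *Kpna1* (0.78), *Pklr* like *Mtss1* (0.78) and *Iws1* (0.77), and *Ppargc1a*, with the fewest counts, like *Dlg3* (0.65) and *Nfyb* (0.64).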

How the data were processed

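Liver RNA was sequenced as 19 libraries (5 vehicle, 7 AAV-GFP, 7 AAV-miR-34b/c) with the QuantSeq 3′ mRNA kit, single-end. The authors deposited raw counts per gene in 1 table, made with the provider's pipeline of quality filtering, trimming, alignment and counting by gene, and their processing notes name STAR and mm10. The version of STAR, the annotation, the strand counted and any molecular identifiers are not given in the sources used here. Counts can therefore include PCR duplicates, and reads of overlapping genes can be shared. The table held 0 columns of other samples. Symbols came from GENCODE M21 (GRCm38), for 30934 of 31053 identifiers.

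Levels are CPM after TMM scaling. Differences were fitted with edgeR 4.0.16 in R 4.3.3 (filterByExpr with a minimum count of 10, glmQLFit, glmQLFTest) over the 2 groups compared, with Benjamini-Hochberg adjustment over all genes tested and a threshold of 0.05. Fold changes are log2 with their standard errors. Single genes were also tested by two-sided exact permutation of log2 CPM (prior count 2). On simulated counts edgeR recovered 45% of genes changed 2-fold and 94% changed 4-fold in AAV-miR-34b/c against AAV-GFP.

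Alternatives were no filter, at least 10 counts in every library, DESeq2 size factors, library size only, DESeq2 1.42.0, limma-voom (limma 3.58.1) with sample weights, all 3 groups in 1 fit, a replicate block, close pairs summed (variation beyond counting noise under 0.2), a clock covariate, and each library left out. A single-phase clock covariate was added after seeing the data. The members, lists and tests were chosen with earlier results of these data known. From each list at most 3 called genes per direction (2 for cell markers) with the smallest adjusted p are named, and for likeness the top 2 per member. Some genes of these lists are not reported here by name.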

Additional observations from a re-analysis of the deposited data

Results flagged for a closer look

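In 30 groups of 5 or 7 libraries examined (9 genes and the total count), 6 held 1 library far from the others, where chance gives 1 in 20, or 1.5. Vehicle 2 stood apart in *G6pc* (7.53 log2 CPM, the next library at 9.40) and in *Gys2* (6.88, the next at 5.59). AAV-GFP 4 was low in *Pklr* (4.67, the next at 5.53) and in *Slc2a2* (6.98, the next at 7.82). AAV-miR-34b/c 6 was high in *Pygl* (9.85, the next at 9.27). AAV-GFP 5 had the highest total of its group, 4383805 counts, with the next at 3239809. No cause was tested.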

How the results depend on the processing

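Over all alternatives and left-out libraries, 571 of the members' log2 fold changes kept their direction and side of the threshold, 31 passed it, 3 no longer did and 34 changed sign. The cause was not tested. *G6pc* in AAV-miR-34b/c against AAV-GFP was called in all 11 alternatives and all 14 fits with a library left out. *Ppargc1a* had few counts, and their part in its lack of a call was not tested.

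Genes called in AAV-GFP against vehicle (1212) were 2687 with limma-voom, 227 with close pairs summed, 743 with the clock covariate, 224 with the single-phase covariate and 689 (without vehicle 4) to 1859 (without AAV-GFP 6) with a library left out. For AAV-miR-34b/c against AAV-GFP (311) they were 624 with library size only, 572 with DESeq2, 813 with limma-voom, 87 with close pairs summed, 197 with the clock covariate and 209 to 344 with a library left out. For AAV-miR-34b/c against vehicle (2037) they were 3839 with limma-voom, 331 with close pairs summed, 1018 with the single-phase covariate and 1267 to 2695 with a library left out. Members called in AAV-GFP against vehicle (0) were 1 without the filter, 2 with limma-voom and 0 to 2 with a library left out. They were 1 to 2 in AAV-miR-34b/c against AAV-GFP. Against vehicle AAV-miR-34b/c had 1 member called, and 2 without the filter, with DESeq2 size factors and with all 3 groups, 4 with library size only and with limma-voom, 3 with DESeq2, 0 with close pairs summed and with the single-phase covariate, and 1 to 2 with a library left out.

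With the replicate block, 3088, 142 and 922 genes and 4, 1 and 2 members were called in the 3 comparisons. The samples share only a number: deviations correlated over 0.1 in 5 of 17 number pairs, and 1 of 17 correlated best with its own number. Under the block *Fbp1* (0.023) and *Pklr* (-0.23) changed sign in AAV-miR-34b/c against vehicle.

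Other changes of sign concerned uncalled values. In AAV-GFP against vehicle the clock and single-phase covariates gave 0.070 and 0.28 for *Pklr* and 0.14 and 0.36 for *Slc2a2*, and *Ppargc1a* was at -0.055 with limma-voom and -0.14 with the single-phase covariate. Between the TAA groups *Pck1* was at 0.00027 with DESeq2, 0.0015 with all 3 groups, 0.043 and 0.063 with the covariates and -0.10 to 0.076 with a library left out. *Fbp1* was at -0.15 with library size only, -0.090 with close pairs summed, -0.086 and -0.044 with the covariates and -0.057 to 0.18 with a library left out. *Gys2* was at 0.13 and 0.072 with the covariates, and *Pygl* at 0.0032 with close pairs summed and -0.19 to 0.058 with a library left out. In AAV-miR-34b/c against vehicle *Pklr* was at -0.059 with library size only and -0.17 to 0.22 with a library left out.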
